A study of Mus musculus with 11 samples.

Results

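Major histocompatibility complex (MHC) class I molecules and the proteins that load them with peptide were followed in liver through 10 genes, H2-K1, H2-D1, H2-T23, B2m, Tap1, Tap2, Tapbp, Psmb8, Psmb9 and Psmb10. The 10 genes were chosen by their role with the Gsr-null minus WT values of these arrays already known, so those differences are given as a description and without p-values. Every probe set that the platform annotation assigns to them was taken, 30 of the 22626 probe sets on the array that are not controls. Of these, 25 carry 1 symbol and 5 carry several. H2-T23 has no probe set of its own and is read only together with the pseudogene H2-T-ps.

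Livers came from male C57BL/6J mice aged 15 to 20 weeks, harvested between 2 and 4 in the afternoon, 5 of them wild type (WT) and 6 of them Gsr-null, that is without functional Gsr, the gene of glutathione reductase. Each sample is a biological replicate per the labels, and all share strain, sex and age range. The way Gsr was disrupted, the number of backcrosses and whether the WT animals were littermates are not given in the sources used here. All values are log2 GCRMA values, and a value near 4 or below lies close to the floor of the array.

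Class I molecules present peptides from the cell's own proteins to CD8 T cells and are recognised by natural killer cells. The heavy chain, encoded in mouse by H2-K1 and H2-D1 for the classical molecules and by H2-T23 for the nonclassical Qa-1, pairs with beta-2-microglobulin, the product of B2m. The immunoproteasome subunits Psmb8, Psmb9 and Psmb10 replace constitutive subunits and alter which peptides are cut, the Tap1 and Tap2 transporter carries peptides into the endoplasmic reticulum, and tapasin, the product of Tapbp, holds the empty molecule beside the transporter. Most of these genes are induced by interferon-gamma. Classical class I genes differ strongly in sequence between mouse strains and resemble each other within a strain, so a probe set of these genes can read related transcripts and its signal depends on how well the transcript matches the probes.

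The arrays resembled each other, with Pearson's r across tested probe sets of 0.935 to 0.989 between any 2 samples. Gsr itself was 6.82 on average in WT and 4.99 in Gsr-null livers (limma adjusted p = 1.82e-05), and each Gsr-null liver, at 4.71 to 5.29, lay below each WT liver, at 6.62 to 6.93. Gsr-null 2 and 3 had a higher floor, with a 5th percentile of 1.79 and 1.76 where other arrays had 1.53 to 1.62. By the 3' minus 5' difference of control probe sets, which RNA integrity bears on, values of 0.544 to 0.703 and of 1.20 to 1.75 parted the samples into a lower set (WT 2 and 4, Gsr-null 1, 2 and 3) and a higher set (WT 1, 3 and 5, Gsr-null 4, 5 and 6). Hepatocyte markers were all above the floor (8 of 8 tested), and all 8 markers of T and NK cells on the array stayed at or below 4 in every sample.

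Among the 30 probe sets, 18 passed the filter of a log2 value above 4 in at least 5 samples, and they stand for 8 genes with a probe set of their own. Limma called 0 of the 18 at an adjusted p under 0.05, where 0.387% of all 9560 tested probe sets were called. At an unadjusted p under 0.05 there were 9 of 18, beside 8.36% of all tested, and a two-sample test without moderation also called 0. The difference was negative in 15 of 18, beside 56.7% of all tested, with a median of -0.35 against -0.03. These probe sets overlap in the transcripts they read, and the genes were chosen with these values known, so nothing is read from the counts. In none of the 18 were the genotypes fully parted, beside 1.36% of all tested.

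The widest spread between livers was on an H2-D1 probe set, among the Gsr-null animals. The H2-D1 probe set 1450170_x_at was 6.75, 5.30, 6.80, 6.75 and 5.79 in WT 1 to 5. In Gsr-null 1 to 6 it was 10.98, 6.06, 10.37, 5.55, 11.14 and 11.70. Gsr-null 1, 3, 5 and 6 were thus high and Gsr-null 2 and 4 lay within the WT range, with no sample between 6.80 and 10.37. That gap of 3.57 between neighbouring samples was exceeded by 8 of 9560 tested probe sets (0.0837%), and the SD among Gsr-null livers, 2.75 against 0.69 in WT, by 10 (0.105%). The mean difference, 3.02 higher in Gsr-null (SE 1.10), describes none of the 6 animals well.

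The same 4 animals were the lowest on 3 other class I probe sets well above the floor, and on the dimmer 1426324_at given below. H2-D1 1425545_x_at was 11.65, 11.95, 11.91, 11.58 and 12.02 in WT and 11.06, 11.89, 11.17, 11.70, 11.16 and 10.97 in Gsr-null 1 to 6. Gsr-null 2 and 4 again fell inside the WT range, and the other 4 lay at least 0.41 below every other liver. H2-D1 1451784_x_at was 11.49 to 11.91 in WT, 11.57 and 11.62 in Gsr-null 2 and 4, and 10.73 to 11.19 in the other 4. H2-K1 1451931_x_at was 11.11 to 11.44 in WT, 11.17 and 11.11 in Gsr-null 2 and 4, and 10.23 to 10.54 in the other 4. On these 3 probe sets the mean was 0.50 (SE 0.18), 0.56 (SE 0.18) and 0.62 (SE 0.18) lower in Gsr-null livers. One H2-D1 probe set was therefore high in the animals in which others of the same gene were low. H2-D1 as a gene has no settled direction: its mean over 5 tested probe sets differed by 0.15, against -0.50 for the probe set with the highest mean.

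**Figure D1:**
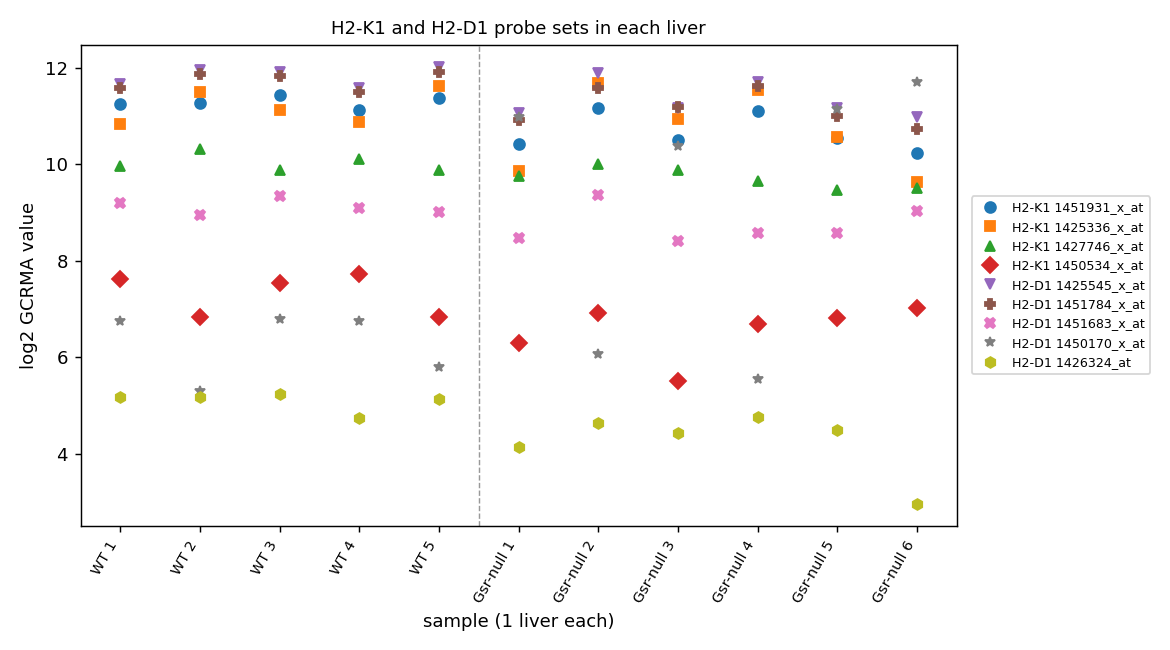
Log2 GCRMA values of the 9 tested probe sets of H2-K1 or H2-D1 alone (vertical axis) in each of 5 WT and 6 Gsr-null livers (horizontal axis), 1 point a liver. On H2-D1 1450170_x_at, Gsr-null 1, 3, 5 and 6 sit between 10.37 and 11.70 and all other livers between 5.30 and 6.80. The same 4 livers are the lowest on 1425545_x_at, 1451784_x_at, 1451931_x_at and, nearer the floor, 1426324_at.

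The remaining heavy chain probe sets followed this division in part. H2-K1 1425336_x_at was 9.85, 11.68, 10.94, 11.53, 10.56 and 9.63 in Gsr-null 1 to 6, against 10.83 to 11.61 in WT. Gsr-null 6, 1 and 5 were lowest, and Gsr-null 3 lay inside the WT range. H2-D1 1426324_at was 4.15, 4.64, 4.43, 4.75, 4.49 and 2.96 in Gsr-null 1 to 6 and 4.73 to 5.23 in WT, with Gsr-null 6 far below the rest. Gsr-null 1, 3, 5 and 6 were the lowest livers here too, but Gsr-null 2 also lay below the WT range. H2-K1 1450534_x_at was lowest in Gsr-null 3, at 5.50, and 6.29 to 7.01 in the other 5 Gsr-null livers, against 6.82 to 7.73 in WT. H2-D1 1451683_x_at was 8.40 to 8.58 in Gsr-null 1, 3, 4 and 5 and 9.37 and 9.03 in Gsr-null 2 and 6, against 8.94 to 9.34 in WT, so the 4 low animals were not the same ones. H2-K1 1427746_x_at was 9.87 to 10.32 in WT and 9.46 to 10.01 in Gsr-null livers.

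Near the floor, the H2-D1 probe set 1427651_x_at was 3.35 to 3.74 in WT and 5.01, 4.00 and 3.89 in Gsr-null 6, 1 and 3, with 3.50 to 3.66 in the other 3. H2-D1 1452544_x_at was likewise highest in Gsr-null 6 and 3, at 4.38 and 4.06, and 3.09 to 3.76 elsewhere. H2-D1 1425614_x_at and 1451934_at did not pass the filter, at 2.78 to 3.49 and 0.78 to 1.47 over all samples. The probe set shared by H2-K1 and H2-D1, 1424948_x_at, was 9.83 to 10.38 in WT and 9.67 to 9.95 in Gsr-null, without the division. The shared probe sets 1422348_at and 1451593_at stayed at 3.31 to 4.12 and 2.26 to 2.50.

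H2-Bl, another class I gene of the same region and near the floor, had its highest value in Gsr-null 6. It was 4.87, 3.90, 4.68, 3.20, 4.57 and 5.84 in Gsr-null 1 to 6 and 3.26 to 4.78 in WT (difference 0.48, SE 0.41, limma adjusted p = 0.909). Gsr-null 2 and 4 were the lowest of the 6, as on 1450170_x_at, but WT 1 reached 4.78. By control 3' minus 5' set, the Gsr-null minus WT difference on 1450170_x_at was 3.11 within the lower set and 3.02 within the higher set, and on 1451931_x_at it was -0.49 and -0.72. Of the high animals, Gsr-null 1 and 3 are in the lower set and Gsr-null 5 and 6 in the higher, and of the others Gsr-null 2 is in the lower and Gsr-null 4 in the higher. Lcn2, an acute phase gene, was 13.0, 8.25, 10.3, 5.90, 7.50 and 12.6 in Gsr-null 1 to 6. Its 3 highest livers, Gsr-null 1, 6 and 3, are high on 1450170_x_at and its lowest of the Gsr-null livers, Gsr-null 4, is not, while Gsr-null 5, which is high there, lies below Gsr-null 2, which is not. The part of the acute phase in the division was not tested.

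**Figure D2:**
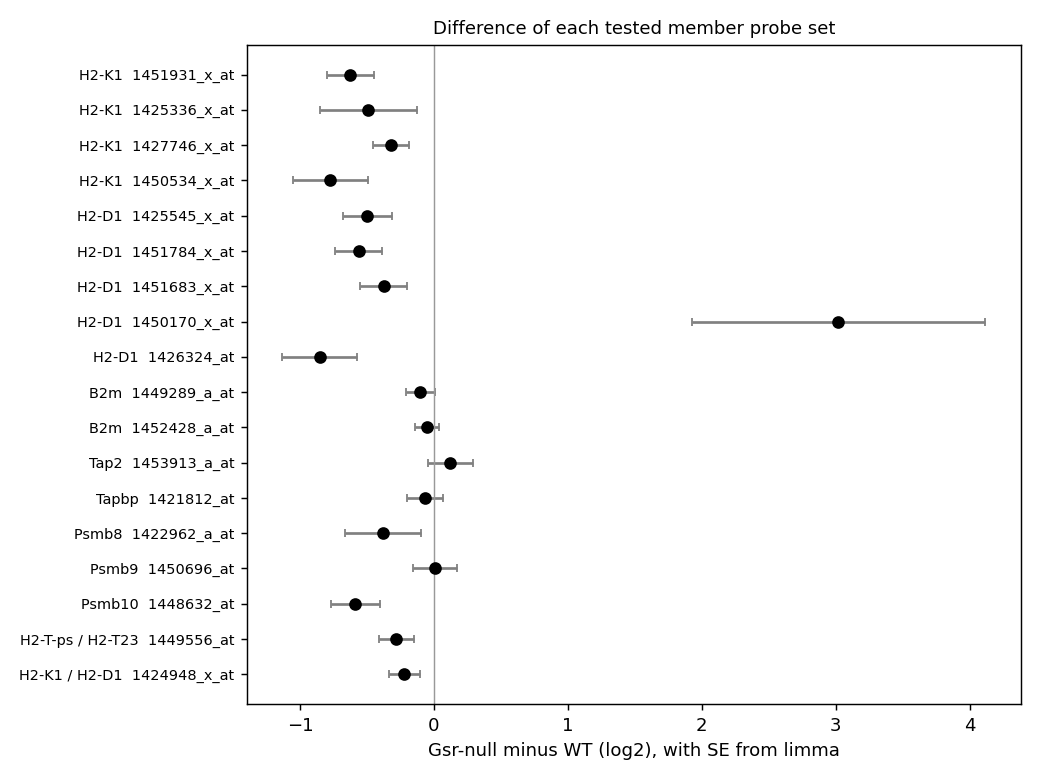
Gsr-null minus WT difference (log2, horizontal axis) of the 18 tested member probe sets, with the SE from limma as bars, n = 5 WT and 6 Gsr-null. All 11 class I heavy chain probe sets but 1450170_x_at, at 3.02, lie below 0, and those of B2m, Tapbp and Psmb9 lie within 0.11 of it.

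H2-T23, which encodes the heavy chain of Qa-1, was read by 1449556_at together with H2-T-ps. It was 11.24, 11.56, 11.78, 11.41 and 11.67 in WT and 11.22, 11.51, 11.36, 11.26, 11.05 and 11.11 in Gsr-null 1 to 6. The difference was -0.28 (SE 0.13). Gsr-null 5, 6 and 1 lay below the lowest WT liver and the other 3 did not. Its second probe set, 1419658_at, was 2.25 to 2.95 in all samples.

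B2m, the common light chain, was close to constant. On 1449289_a_at it was 12.97, 12.70, 13.03, 13.05 and 13.06 in WT and 12.73 to 12.99 in Gsr-null livers. On 1452428_a_at it was 12.80 to 12.99 in WT and 12.80 to 12.92 in Gsr-null livers. The differences were -0.10 (SE 0.11) and -0.05 (SE 0.09). A larger SD among Gsr-null livers was seen in 95.3% and 99.7% of all tested probe sets. The B2m signals thus varied little among the animals that several heavy chain probe sets parted.

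Signals of several H2-K1 or H2-D1 probe sets parted the Gsr-null livers, in both directions, and those of B2m did not. Whether transcript level or probe match differed for the heavy chains was not tested. The upstream stretches of H2-K1, H2-D1 and B2m are shown. They come from RefSeq on assembly GRCm38.p6, which is a C57BL/6J reference and was not read from these animals, and capitals mark matches to the motifs searched. The stretches lie at chr17:34000348-34000547 (minus strand), chr17:35262894-35263093 (plus strand) and chr2:122147487-122147686 (plus strand), each ending at the base before a transcript start.
H2-K1: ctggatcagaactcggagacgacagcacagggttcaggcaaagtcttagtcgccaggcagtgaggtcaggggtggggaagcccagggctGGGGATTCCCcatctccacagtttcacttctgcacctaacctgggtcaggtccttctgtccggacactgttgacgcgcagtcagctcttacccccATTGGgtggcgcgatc
H2-D1: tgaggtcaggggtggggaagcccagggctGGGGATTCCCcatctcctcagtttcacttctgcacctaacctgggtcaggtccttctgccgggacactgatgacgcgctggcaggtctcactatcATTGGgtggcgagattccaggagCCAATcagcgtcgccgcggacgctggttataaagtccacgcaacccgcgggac
B2m: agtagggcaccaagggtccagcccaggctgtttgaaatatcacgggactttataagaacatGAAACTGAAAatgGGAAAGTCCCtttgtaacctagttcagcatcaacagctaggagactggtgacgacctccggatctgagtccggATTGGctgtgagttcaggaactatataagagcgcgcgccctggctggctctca

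Both heavy chain stretches hold GGGGATTCCC, a match to the NF-kappa-B pattern searched (GGG, any 2 bases, TT, any base, CC), and the B2m stretch holds its reverse complement form. Over 177 aligned bases upstream of the starts, H2-K1 and H2-D1 were identical at 161 (91.0%). Of 9 members with a promoter window of 250 bases before to 50 after the start, 3 held the NF-kappa-B pattern on either strand, beside 4.79% of 32851 windows. The core of the interferon-stimulated response element, a pair of GAAA repeats with 2 bases between them, was in 2 of 9, B2m and H2-T23, beside 3.44%. The gamma-activated site TTCNNNGAA was in 1, Psmb8, beside 8.3%, and CCAAT in 7, beside 37.4%. These patterns can overlap by chance and a match is not a binding site. Only exact matches were searched, so a pattern not found, as in H2-K1 and H2-D1 for the interferon-stimulated element, does not show that such an element is absent.

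For the immunoproteasome and transporter genes the wider spread was among the WT livers. Psmb8, Psmb9, Psmb10, Tap2 and the brightest Tap1 probe set had a larger SD in WT than in Gsr-null livers. Psmb8 varied in both genotypes, with an SD of 0.63 in WT and 0.41 in Gsr-null livers. Psmb9, which replaces a constitutive catalytic subunit, was 6.68, 6.38, 7.03, 6.14 and 7.08 in WT and 6.65, 6.70, 6.68, 6.53, 6.68 and 6.77 in Gsr-null 1 to 6. WT 3 and 5 lay above and WT 2 and 4 below all Gsr-null livers, so the means were nearly equal, 6.66 ± 0.41 (SD, n = 5) for WT against 6.67 ± 0.08 (SD, n = 6). Psmb10 was 6.86, 7.01, 7.27, 6.60 and 7.65 in WT and 6.69, 6.30, 6.41, 6.74, 6.61 and 6.21 in Gsr-null livers. It was 0.59 lower in Gsr-null livers (SE 0.18), and only WT 4 overlapped them. Psmb8 was 6.59, 7.34, 7.96, 6.82 and 7.96 in WT and 7.51, 6.90, 7.39, 6.84, 6.48 and 6.63 in Gsr-null livers, a difference of -0.38 (SE 0.28) with overlapping ranges.

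Tap1, a subunit of the peptide transporter, was read by 1416016_at at 4.17, 3.70, 4.80, 3.59 and 4.46 in WT and 3.40, 3.76, 3.37, 3.85, 3.60 and 3.09 in Gsr-null livers. It exceeded 4 in 3 WT samples and in no Gsr-null sample, so it did not pass the filter and only its levels are given. WT 3, 5 and 1 were the highest of all 11. The other 3 Tap1 probe sets were at 1.51 to 2.60 in every sample. Tap2, the partner of Tap1, was 3.71, 4.01, 4.36, 3.36 and 4.01 in WT and 3.77 to 4.22 in Gsr-null livers, near the floor, with a difference of 0.12 (SE 0.17). Tapbp was 9.60 to 9.94 in WT and 9.37 to 9.95 in Gsr-null livers on 1421812_at (difference -0.07, SE 0.13). Its second probe set, 1450378_at, was 2.76 to 5.20, above 4 in WT 2 and Gsr-null 1, 2 and 3, all of the lower 3' minus 5' set.

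**Figure D3:**
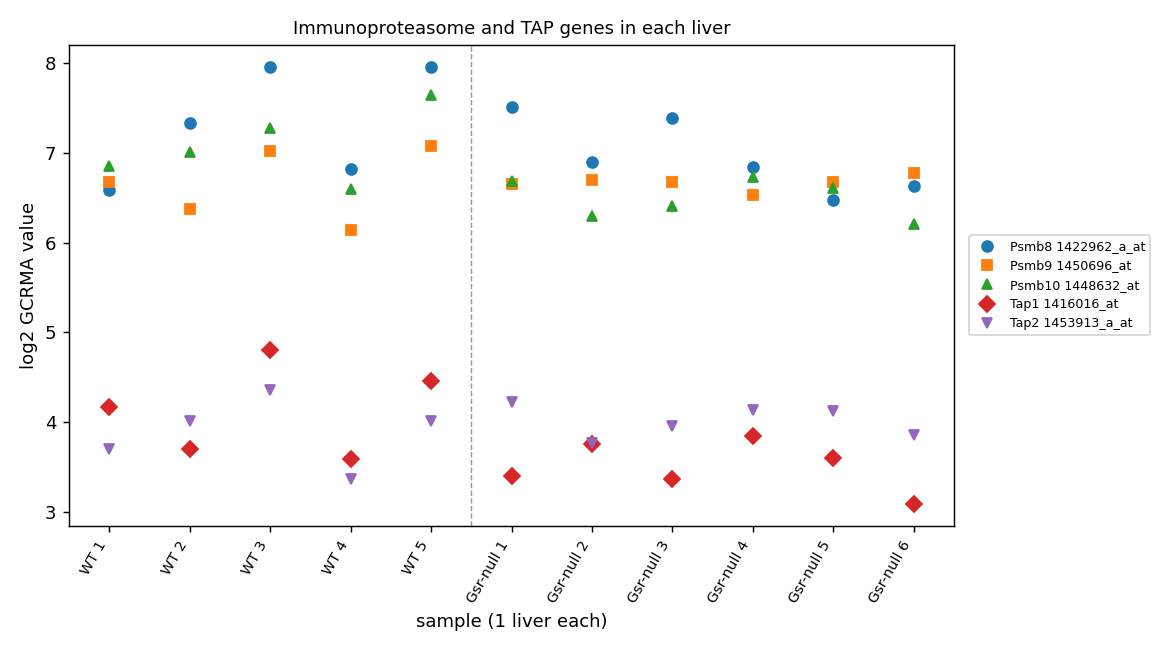
Log2 GCRMA values of Psmb8, Psmb9, Psmb10, Tap1 and Tap2 (vertical axis) in each of 5 WT and 6 Gsr-null livers (horizontal axis), 1 point a liver. WT 3 and 5 are the highest livers for Psmb8, Psmb9, Psmb10 and Tap1, and WT 4 is lowest of the WT livers for all but Psmb8.

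WT 3 and 5 were highest for Psmb8, Psmb9, Psmb10 and Tap1, and WT 3 was highest for Tap2. Both belong to the higher 3' minus 5' set, and WT 4, mostly the lowest, to the other. WT 1, also of the higher set, was the lowest WT liver for Psmb8, at 6.59. Gsr-null 4, 5 and 6, of that set too, lay below WT 3 and 5 on Psmb8, Psmb9, Psmb10 and Tap1. Within the lower set Psmb9 differed by 0.42, Psmb8 by 0.19 and Psmb10 by -0.34 between genotypes. Within the higher set they differed by -0.27, -0.86 and -0.74, so the direction of Psmb8 and Psmb9 turned between the sets while that of Psmb10 did not. The part of RNA integrity or labelling in this was not tested. Each set holds 2 or 3 animals a genotype, and no test was run within it.

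Psmb9 and Tap1 lie head to head on chromosome 17 and share the stretch between their starts, chr17:34187331-34187555 in GRCm38.p6, printed along the strand of Tap1 with the CCAAT match in capitals. It is shown because the 2 genes ranked the WT livers alike, with WT 3 and 5 high and WT 2 and 4 low. High values in WT 3 and 5 were not particular to this pair, as Psmb10, on chromosome 8, had them too. Tap1 lay near the floor, and a part of the shared stretch was not tested.
Psmb9-Tap1: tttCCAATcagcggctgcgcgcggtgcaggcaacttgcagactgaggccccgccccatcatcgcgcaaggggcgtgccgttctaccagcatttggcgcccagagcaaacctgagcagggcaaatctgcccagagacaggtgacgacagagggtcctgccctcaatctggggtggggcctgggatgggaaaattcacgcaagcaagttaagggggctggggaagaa

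Spread within a genotype differed between probe sets of H2-K1 or H2-D1 alone and most others. All 9 tested probe sets of H2-K1 or H2-D1 alone had a larger SD in Gsr-null than in WT livers. The ratio was as low as 1.15, on 1427746_x_at, and these probe sets can read each other's transcripts. Of the other 9 tested probe sets only Tapbp had a larger SD in Gsr-null livers. The heavy chain probe sets 1449556_at and 1424948_x_at did not, at 0.770 and 0.548 times the SD in WT. Over all members the SD was larger in Gsr-null livers in 10 of 18, beside 60.8% of all tested probe sets, so nothing is read from the count. Psmb9 had an SD in Gsr-null livers 0.197 times that in WT, and 1450170_x_at 3.98 times.

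**Figure D4:**
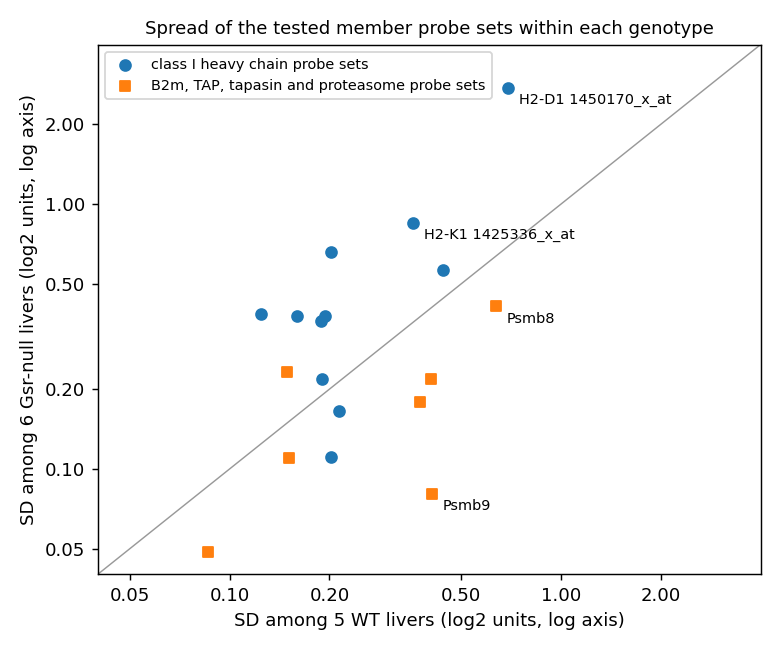
SD among the 6 Gsr-null livers (vertical axis, log2 units on a log axis) against SD among the 5 WT livers (horizontal axis, the same) for the 18 tested member probe sets, with the line of equal spread. H2-D1 1450170_x_at, at 0.69 and 2.75, lies far above the line, and Psmb9, at 0.41 and 0.08, far below it.

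Other genes of the pathway gave 1 call among 67 tested, on a gene that reached the test through 1 genotype (Ifi44l, below 4 in every WT liver). Among other class I heavy chains and class I-like genes, 0 of 6 tested were called, with H2-Bl as given above and Hfe, which regulates iron uptake, at 0.20 (SE 0.20, limma adjusted p = 0.935). Of 14 loading and trimming genes 0 were called. Pdia3, the oxidoreductase of the loading complex, differed by 0.25 and Tpp2, a cytosolic peptidase, by -0.24, with limma adjusted p = 0.942 and 0.797. Of 4 genes of the proteasome activator and assembly 0 were called, with Psme1, an activator subunit, at -0.27 (limma adjusted p = 0.501) and Pomp, the assembly factor, at 0.13 (limma adjusted p = 0.943). The 3 constitutive catalytic subunits were not called either, Psmb6 at -0.19 and Psmb5 at 0.06 (limma adjusted p = 0.797 and 0.983).

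Regulators of the class I genes gave 0 calls among 16 tested. Nfyb, a subunit of the CCAAT-binding factor, differed by -0.49 (SE 0.22, limma adjusted p = 0.569) and Irf9, of the interferon-alpha response, by -0.38 (SE 0.16, limma adjusted p = 0.513). Irf1, which interferon-gamma induces, averaged 6.28 ± 0.28 (SD, n = 5) for WT against 6.20 ± 0.36 (SD, n = 6) for Gsr-null (limma adjusted p = 0.99). Rfx5, which binds MHC promoters, stayed below the filter at 3.70 and 3.56 on average, and Nlrc5 had no probe set assigned to it alone. Of 20 interferon-induced genes 1 was called: Ifi44l was 1.80 to 3.05 in WT and 3.62 to 4.67 in Gsr-null livers. It passed the filter only through the 5 Gsr-null livers above 4, so a difference was built into its selection and nothing is read from that call. Of the 20, 12 had a negative difference, beside 56.7% of all tested probe sets, so nothing is read from the count. All 4 tested class II genes were lower without a call, H2-Aa by -1.19 (SE 0.26, limma adjusted p = 0.102) and H2-Eb1 by -1.03 (SE 0.31, limma adjusted p = 0.282).

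Other liver cells also carry class I molecules, and their markers were summed by list. A sum mostly follows the brightest marker of its list and can hide a change in dimmer ones. The brightest was Lcp1 for leukocytes (9.62 in WT, difference -0.0056), Dcn for stellate cells and Lyz2 for neutrophils and monocytes. In bulk liver, fewer cells of a type and less RNA per cell cannot be told apart. The summed level of 8 general leukocyte markers was 9.87 to 10.2 (log2) in WT and 9.70 to 10.2 in Gsr-null livers. All 5 tested had a negative difference (median -0.33), beside 56.7% of all tested probe sets. The 1 called, Cd52, a leukocyte surface protein, was 4.53 to 5.33 in WT and 3.24 to 4.15 in Gsr-null livers. It was above 4 in every WT liver and in 1 Gsr-null liver, so it reached the filter mainly through the group where it is high, and nothing is read from the call. For 10 Kupffer cell and macrophage markers the sums were 11.01 to 11.67 and 10.67 to 11.96, and for 8 markers of sinusoidal endothelium 9.81 to 10.6 and 9.75 to 10.6, with 0 called in either list. Sums of 6 stellate cell markers (4 tested) were 10.4 to 10.6 and 9.90 to 10.6, also with 0 called. Sums of 5 neutrophil and monocyte markers were 7.61 to 8.18 and 6.82 to 8.70, and the 1 of them tested, Lyz2, was not called. Col1a2, a collagen gene of stellate cells, was highest in Gsr-null 4, at 6.76, against 4.52 to 5.05 in WT. The rest of the stellate list was mixed in this liver. Col1a1, near the floor, was also highest there, at 3.95, while Lrat was lowest of all livers, at 1.40. Reln, Dcn and Pdgfrb lay within the WT range in Gsr-null 4. S100a8, a neutrophil gene, was 6.63 in Gsr-null 1 and at most 3.63 in every other liver. Of the B cell markers on the array 3 of 4 were above 4 in no sample, while the last, Ighm, the immunoglobulin M heavy chain, was 9.23 in Gsr-null 4 and 2.56 to 4.67 in every other liver. Gsr-null 4 is 1 of the 2 Gsr-null livers that lay within the WT range on 1450170_x_at. The part of these cells in the member values was not tested.

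The genes whose pattern lay closest to the mean of the 8 members' representative probe sets, with genotype means taken out, were Kctd20, Ddx39b, Lgals3bp, Usp18 and Habp4. They were the 5 highest of 5935 candidates, so no p is given. Pearson's r over the 11 samples was 0.947, 0.926, 0.919, 0.906 and 0.895, and Spearman's rho 0.945, 0.882, 0.927, 0.9 and 0.755. Without WT 3 and 5, the samples farthest from the median of the member mean, r was 0.903, 0.846, 0.853, 0.798 and 0.807. The member mean does not stand for all members alike. Its r with Psmb10, Psmb8, Psmb9 and Tap2 was 0.817, 0.772, 0.764 and 0.734. With H2-D1 and H2-K1 it was 0.608 and 0.560, and with Tapbp and B2m 0.165 and 0.126. Usp18, an interferon-induced protease for ISG15, was 4.46, 3.81, 6.48, 3.89 and 6.03 in WT 1 to 5 and 3.55 to 4.58 in Gsr-null livers, high in WT 3 and 5 like the immunoproteasome genes. Lgals3bp, a secreted glycoprotein that interferon induces, was highest of the WT livers in WT 3 and 5, at 7.45 and 7.42. Kctd20 and Ddx39b, an RNA helicase gene of the MHC region, lie on chromosome 17, as do all members but B2m and Psmb10.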

How the data were processed

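Biotin-labelled liver RNA of 5 WT and 6 Gsr-null mice was hybridised to Affymetrix mouse arrays of 1 colour. The authors deposited 1 value per probe set and sample, made with GCRMA per the submitters' processing notes, and read here as log2 from its range. Version, filters, builds and batches are not given in the sources used here. The members, lists, tests and alternatives were chosen with earlier results of these data known, and every gene list is described by counts and medians only.

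A probe set was tested where 5 or more samples exceeded a log2 value of 4, which held for 9560 of 22626. Limma 3.58.1 (R 4.3.3; lmFit, eBayes) gave the differences, with Benjamini-Hochberg adjustment across every tested probe set and a call at an adjusted p under 0.05. The fit was tested on simulated data. The brightest tested probe set on average stands for a gene. Probe sets with several symbols name no gene. Genes outside the members were named by rule: those called in a list, or else the 2 with the largest difference, 4 set regulators (1 is not reported here) and the 5 closest in pattern. Summed marker levels are log2 of summed linear values. Promoter windows are RefSeq's on GRCm38.p6, found for 9 of 10 members, not for Tap2. The array's build is not given, so no probe set coordinates are printed. A comparison of member proteins was planned and not run. The number of arrays limits precision. Plots were made in Python 3.11.15 (matplotlib 3.10.9).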

Additional observations from a re-analysis of the deposited data

Results flagged for a closer look

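In 3 of 36 groups of values, each a tested member probe set in 1 genotype, 1 liver was set well apart from its group, and chance flags about 1 in 20 such groups, here 1.8. On the H2-D1 probe set 1426324_at this was WT 4, at 4.73 against 5.14 to 5.23 in the other WT livers, and Gsr-null 6, at 2.96 against 4.15 to 4.75. On the B2m probe set 1449289_a_at it was WT 2, at 12.7 against 12.97 to 13.06. The wide gap on H2-D1 1450170_x_at does not appear here, because 4 and 2 Gsr-null livers lie on its sides.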

How the results depend on the processing

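The count of member probe sets called stayed at 0 of those tested under every alternative run, namely filters, scalings, variance models, array weights, a replicate block, a block for the 3' to 5' sets, a test without moderation, an adjusted p under 0.1, Gsr-null samples 2 and 3 left out together, and each sample left out in turn. Their median difference of -0.35 moved to -0.060 with no filter, where 12 dim probe sets enter, and was -0.37 to -0.27 when 1 sample was left out. Of 358 values of single member probe sets under alternatives, 358 moved by less than 1 SD between replicates. Most of these outcomes were fixed in advance, so the count shows little. Filters and the limma variance model leave a difference unchanged, and leaving out 1 sample cannot move it by 1 SD. The replicate block gave the same differences as leaving out Gsr-null 6. By gene, H2-D1 moved from -0.50 to 0.15 when its probe sets were averaged. H2-D1 1450170_x_at ranged from 2.54 without Gsr-null 6 to 3.77 without Gsr-null 4, and H2-K1 1425336_x_at from -0.69 without Gsr-null 2 to -0.28 without Gsr-null 6. Psmb8 was -0.22 without WT 5 and -0.56 without WT 1. Tap2 turned to -0.01 without WT 4 and Psmb9 to -0.12 without WT 4.

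The single call among other pathway genes, Ifi44l, became 0 calls when only probe sets above 6 were tested, which removes that gene, with the replicate block and with the test without moderation. It became 2 without Gsr-null 1, where Igtp was called at 0.85, and without Gsr-null 5, where H2-Ab1 was called at -1.13, and stayed at 1 to 2 over all samples left out. The cause was not tested. With the replicate block the median of the members was -0.28. Replicate numbers showed no sign of a pairing of the animals in these values. The r between the deviations of WT and Gsr-null livers 1 to 5 was -0.173, 0.036, -0.056, -0.243 and -0.171. Of the 5 WT livers, 0 had their highest r with the same number. Low r cannot exclude a pairing. Levels near the floor limit what Tap1, Tap2 and the dim H2-D1 probe sets can show.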
